A study of Mus musculus with 49 samples.

Results

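Small structural RNAs were followed across 3 ways of isolating RNA from medium spiny neurons (MSNs) of the mouse nucleus accumbens (NAc). The set held 5 small RNA genes, Rmrp, Rpph1, Rn7sk, Gm22513 and Terc, together with the protein-coding gene Ccdc107, whose annotated span overlaps Rmrp, so that it held 6 of the 52636 genes counted. Its members were chosen by name, because several of the small RNAs had been seen far higher in D1 than in D2 nuclei. Ccdc107 was included because it was taken to share fragments with Rmrp. The nuclear D1 and D2 values therefore chose the set and are given below as a description, with no test.

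Libraries of ribosome-depleted total RNA were made from D1- and D2-MSNs, which carry the D1 and the D2 dopamine receptor, of mice bred on a C57BL/6J background. Whole cell-FACS libraries (8 D1 and 6 D2) came from fresh tissue of male mice heterozygous for a cytoplasmic fluorophore driven by the Drd1 or the Drd2 promoter. Nuclear-FACS libraries (6 D1 and 5 D2) came from frozen tissue of male mice heterozygous for a nuclear GFP label (Drd1-cre or Drd2-cre with Thy1-loxP-STOP-loxP-EGFP-F). RiboTag libraries were immunoprecipitated from fresh tissue through an HA-tagged ribosomal subunit (Drd1-cre or Drd2-cre with the floxed Rpl22 allele that carries HA) and were labelled male (6 D1 and 6 D2) or female (5 D1 and 5 D2). The ages of the mice are not given in the sources used here, and per the study's methods no mouse gave more than 1 sample. The study counts more whole cell samples than the libraries used here, in which a column named as a repeat and one named as a further lane were summed with others. Each method thus used its own mouse lines, so that method and mouse line cannot be told apart.

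RNase P and RNase MRP are enzymes built around an RNA. Rpph1 is the RNA of RNase P, which trims the leader from precursor transfer RNAs, and Rmrp is the RNA of RNase MRP, which takes part in the processing of precursor ribosomal RNA. Rn7sk encodes 7SK RNA, which with Larp7, Mepce and Hexim proteins holds the elongation kinase P-TEFb inactive in the nucleus. Gm22513 is annotated as a small nuclear RNA and resembles U1, the RNA that recognises the 5′ splice site, and Terc is the template RNA of telomerase. Ccdc107 encodes a coiled-coil protein. Rpph1, Rmrp and Rn7sk are transcribed by RNA polymerase III and lack the poly(A) tail of messenger RNAs, and libraries of total RNA keep them.

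The sequences of the 4 abundant RNAs, taken from the GENCODE M21 transcripts on GRCm38, are shown because their shortness, the overlap with Ccdc107 and the U1 resemblance bear on how they were counted. Rmrp (ENSMUSG00000088088) lies at chr4:43492788-43493058 on the minus strand and is shown whole, 271 bases, with the bases inside the Ccdc107 span in capitals. Rpph1 (ENSMUSG00000092837) lies at chr14:50807449-50807767 on the minus strand, and its first 300 of 319 bases (chr14:50807468-50807767) are shown. Rn7sk (ENSMUSG00000065037) lies at chr9:78175303-78175633 on the minus strand, and its first 300 of 331 bases (chr9:78175334-78175633) are shown. Gm22513 (ENSMUSG00000096349) lies at chr12:54696782-54696945 on the plus strand and is shown whole, 164 bases, with the bases at positions 3 to 11, which in U1 pair with 5′ splice sites, in capitals.
Rmrp: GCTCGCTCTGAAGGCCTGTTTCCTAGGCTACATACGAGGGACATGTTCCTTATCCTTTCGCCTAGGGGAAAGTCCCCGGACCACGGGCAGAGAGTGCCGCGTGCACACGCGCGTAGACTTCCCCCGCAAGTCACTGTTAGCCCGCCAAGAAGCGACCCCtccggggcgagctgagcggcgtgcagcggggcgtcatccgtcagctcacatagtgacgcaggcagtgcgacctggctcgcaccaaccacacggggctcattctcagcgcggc
Rpph1: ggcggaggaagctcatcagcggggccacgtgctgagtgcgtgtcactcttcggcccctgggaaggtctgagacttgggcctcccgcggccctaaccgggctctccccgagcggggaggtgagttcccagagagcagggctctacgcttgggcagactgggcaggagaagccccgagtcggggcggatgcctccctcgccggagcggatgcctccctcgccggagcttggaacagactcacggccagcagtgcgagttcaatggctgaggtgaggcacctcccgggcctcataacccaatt
Rn7sk: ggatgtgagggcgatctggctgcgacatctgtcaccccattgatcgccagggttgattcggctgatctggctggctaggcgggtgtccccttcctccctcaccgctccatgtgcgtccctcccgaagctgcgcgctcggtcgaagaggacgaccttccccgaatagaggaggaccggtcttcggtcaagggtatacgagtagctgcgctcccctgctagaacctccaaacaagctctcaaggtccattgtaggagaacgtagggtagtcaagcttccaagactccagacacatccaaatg
Gm22513: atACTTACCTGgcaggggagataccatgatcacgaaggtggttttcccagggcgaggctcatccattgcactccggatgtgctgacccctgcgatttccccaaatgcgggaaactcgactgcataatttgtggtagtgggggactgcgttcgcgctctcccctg

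Ccdc107 (ENSMUSG00000028461) lies on the opposite strand from Rmrp at chr4:43492900-43495921, a span of 3022 bases. Of the 271 Rmrp bases, 159 lie inside that span and 112 outside it. The overlap rests on 1 of 6 annotated Ccdc107 transcripts, Ccdc107-206, a processed transcript. RefSeq starts Ccdc107 at position 43493340 of chromosome 4, 282 bases from the start of Rmrp, so that its gene model does not touch Rmrp. The authors counted fragments without regard to strand and for every gene they overlapped, and with such counts reads from Rmrp and from Ccdc107 cannot be told apart where the spans overlap. The Rpph1 start lies 74 bases from that of Parp2 on the other strand. The annotation also places 284 bases of Rpph1 within Ccnb1ip1, but Ccnb1ip1 held 883 counts over all libraries against 419148 for Rpph1. Fragments counted for both genes would not give so few, so that the spans the authors counted over (Ensembl 90) may differ from those of GENCODE M21 given here. Whether they differ for Rmrp and Ccdc107 was not checked. Rn7sk, Gm22513 and Terc (ENSMUSG00000064796, chr3:96414437-96414859, 423 bases, minus strand) overlap no annotated gene. Gm22513 has 38 near-identical genes in the table, with at least 90% identity over at least 80% of its length and the closest, Gm22068, at 99.39%. Fragments that aligned to several places were left out of the counts, so the division of U1-like fragments among these copies is uncertain.

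Whole cell libraries held 10476223 to 27965357 counts, nuclear libraries 3701255 to 68777008 and RiboTag libraries 24076888 to 45641342. Levels are given as CPM, a gene's count as a share of all gene counts of its library, scaled to the usual fixed total. Drd1 and Drd2 differed between the labelled cell types in each method, but Drd2 lay above Drd1 in nuclear D1 libraries, with means of 96.1 and 16.1 CPM, and Drd2 in nuclear D2 was 369 CPM. Mean Drd1 was 248 CPM in whole cell D1 and 6.55 in whole cell D2, 16.1 in nuclear D1 and 6.21 in nuclear D2, and 26.7 in RiboTag D1 and 6.75 in RiboTag D2 labelled male. Markers of astrocytes, oligodendrocytes, microglia, endothelial cells and interneurons were counted in every group, and none of the listed markers was at 0 over a whole group. Genes that hold ribosomal RNA repeats took 70.1 to 75.9% of the counts in RiboTag, 16.4 to 55.9% in nuclear D1, 3.46 to 10.9% in nuclear D2, 0.282 to 4.89% in whole cell D1 and 0.446 to 47.6% in whole cell D2 libraries, which lowers the CPM of all other genes where the share is high.

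Of the 12 RiboTag libraries labelled male, 6 held more counts of Xist, the RNA of the inactive X chromosome (42 to 258), than of 4 Y-linked genes together (1 to 60). These were D1 numbers 1 to 4 and D2 numbers 2 and 6. The other 6 had 1 to 17 Xist and 289 to 437 Y-linked counts, the 10 libraries labelled female had 90 to 402 Xist and 0 to 9 Y-linked counts, and none of the 25 FACS libraries went against its label. Comparisons of the members that use these libraries are also given without the 6. One further column was read from its name as a repeat of whole cell D1 number 1 and was summed with it, and results that the repeat moved are also given without it.

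**Figure D1:**
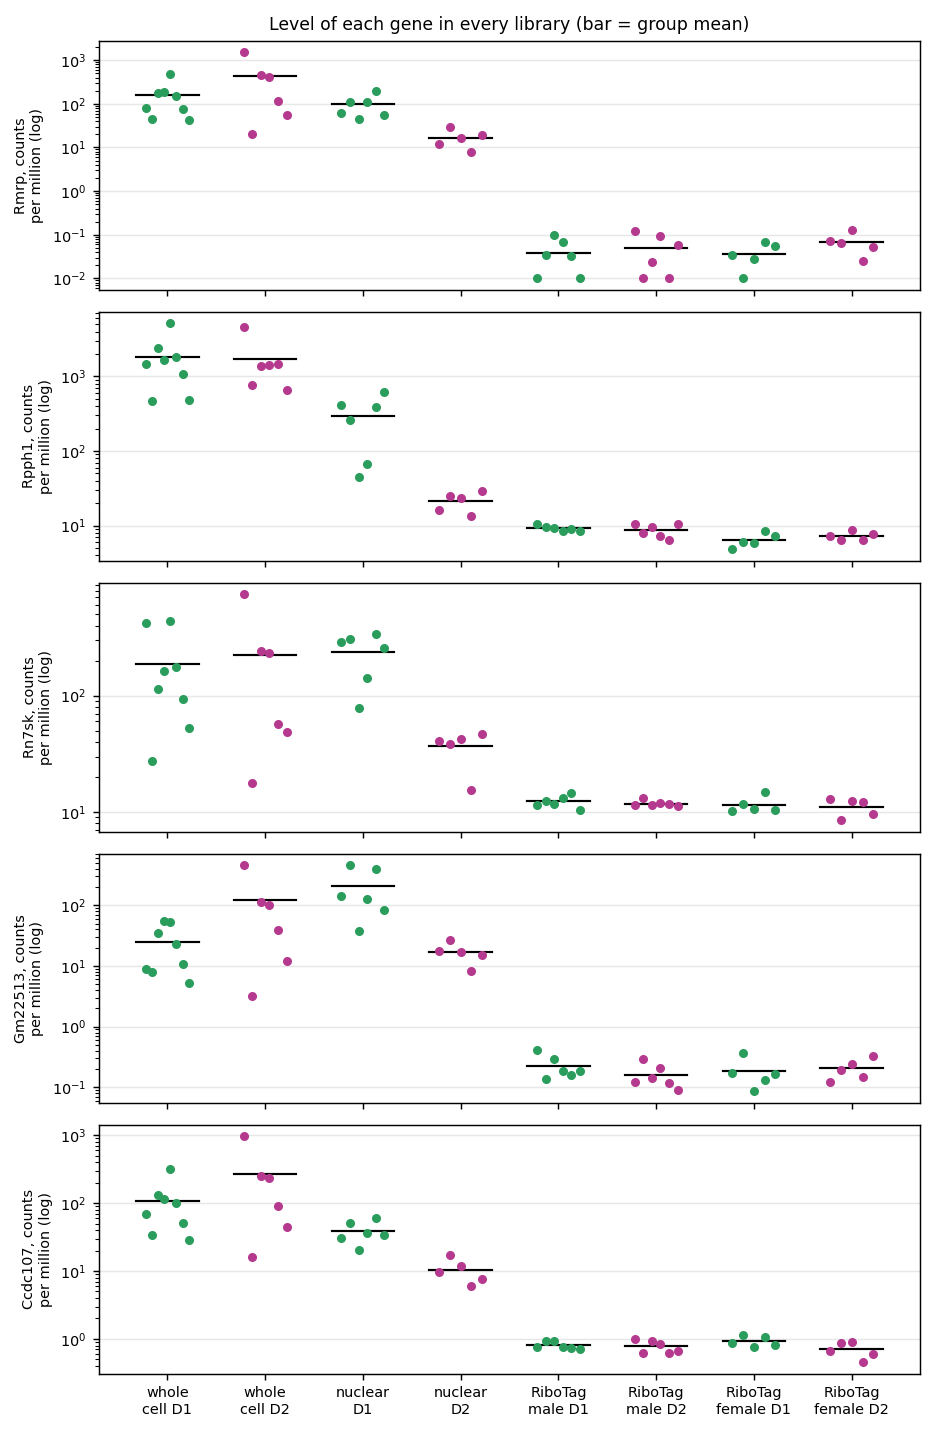
Level of Rmrp, Rpph1, Rn7sk, Gm22513 and Ccdc107 in each of 47 libraries (points; green D1, purple D2), in CPM on a log axis, with bars at the group means and 0 drawn at 0.01. Whole cell libraries spread widely, nuclear D1 lies above nuclear D2 in every panel, and RiboTag libraries lie lowest, with Rmrp at 0 to 0.131 CPM.

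Rpph1, the RNase P RNA, was the most abundant of the 6 genes per kilobase in each of the 14 whole cell libraries. It ranged from 473 to 5206 CPM in the 8 whole cell D1 libraries, with a median of 1555, and from 660 to 4619 CPM in the 6 whole cell D2 libraries, with a median of 1390. The D1 and D2 ranges overlapped, and the highest value in each group, in D1 number 5 and D2 number 1, stood well above the others. Nuclear D1 libraries ranged from 45.0 to 616 CPM with a median of 324, and the 5 nuclear D2 libraries held 16.0, 25.1, 23.8, 13.3 and 29.4 CPM. Whole cell D1 and nuclear D1 overlapped, whereas whole cell D2 and nuclear D1 did not, nor did nuclear D1 and nuclear D2. RiboTag libraries held 4.79 to 10.6 CPM, below every nuclear D2 library.

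Rmrp, the RNase MRP RNA, ranged from 43.1 to 482 CPM (median 116) in whole cell D1 and from 20.5 to 1533 CPM (median 264) in whole cell D2 libraries. The whole cell D2 values spanned 74.8-fold from lowest to highest, the D1 values 11.2-fold. Nuclear D1 libraries ranged from 45.0 to 198 CPM (median 86.2), within the whole cell range, and nuclear D2 libraries held 12.3, 28.7, 16.3, 7.83 and 19.5 CPM, all below nuclear D1. In the 22 RiboTag libraries Rmrp had 0 to 6 counts each, with 5 libraries at 0. Since 3 counts correspond to 0.0657 to 0.125 CPM there, most RiboTag values of Rmrp lie at or under what a library of that depth can show.

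Rn7sk, the 7SK RNA, showed a different order of groups. Nuclear D1 had the highest mean, 235 ± 102 CPM (SD, n = 6; lowest 79.1, median 272, highest 341), and whole cell D2 and D1 followed with 224 ± 274 (n = 6; 17.7, 145 and 747) and 186 ± 159 (n = 8; 27.6, 139 and 441). These 3 groups overlapped throughout, so that their order is not set beyond their spread. Nuclear D2 libraries held 41.1, 38.6, 42.8, 15.4 and 46.7 CPM. RiboTag libraries held 8.48 to 14.7 CPM, and the lowest nuclear D2 library, number 5, lay just above the highest of them. Per kilobase, Rn7sk was the highest of the 6 genes in each of the 22 RiboTag libraries and in 3 of 5 nuclear D2 libraries.

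Gm22513, the U1-like RNA, was also highest in nuclear D1, at 37.8 to 462 CPM with a median of 134. Whole cell D2 libraries ranged from 3.20 to 455 CPM (median 69.3), whole cell D1 from 5.25 to 55.7 (median 17.0), and nuclear D2 libraries held 17.4, 26.3, 17.1, 8.19 and 15.1. Only the step from nuclear D2 down to RiboTag, where 3 to 13 counts per library gave 0.0858 to 0.416 CPM, had no overlap between neighbours in the order of means. The 36 near-identical U1 genes of at most 400 bases varied in a like manner when summed, with means of 64.3 ± 56.3 CPM (SD, n = 8) in whole cell D1, 197 ± 225 (n = 6) in whole cell D2, 164 ± 132 (n = 6) in nuclear D1 and 21.4 ± 6.97 (n = 5) in nuclear D2. Gm22513 alone took 28.0, 37.1, 54.5 and 42.5% of the fragments that these genes and it held together.

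Terc, the telomerase RNA, had 78 counts over all libraries and did not reach the filter of more than 1 CPM in at least 2 libraries in any comparison, so that at most 5 of the 6 members were tested. It had 17 counts over the whole cell D1 libraries, 18 over whole cell D2, of which 15 were in number 4, 2 over nuclear D1 and 41 over nuclear D2. All 22 RiboTag libraries had 0, which allows up to 0.0657 to 0.125 CPM per library. Intervals and limits of this kind cover counting error only.

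Ccdc107 followed Rmrp in the FACS libraries. Its range was 28.8 to 315 CPM (median 84.7) in whole cell D1, 16.3 to 973 (median 162) in whole cell D2 and 20.5 to 60.2 (median 35.2) in nuclear D1, and nuclear D2 libraries held 9.79, 17.0, 11.7, 6.06 and 7.57. The Pearson correlation of log2 CPM between both genes was 0.996 over 14 whole cell and 0.968 over 11 nuclear libraries. It is a description of values that share library depth and may share fragments. The Ccdc107 count was below that of Rmrp in 25 of 25 FACS libraries, and the geometric mean of Ccdc107 per Rmrp was 0.698 in whole cell D1, 0.678 in whole cell D2, 0.427 in nuclear D1 and 0.633 in nuclear D2. In RiboTag libraries the order was inverted: Ccdc107 had 15 to 41 counts beside 0 to 6 of Rmrp.

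**Figure D2:**
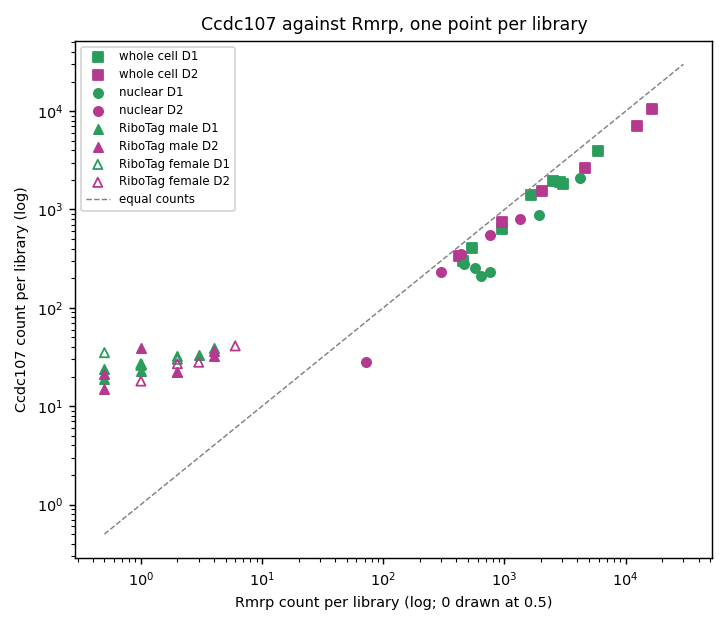
Count of Ccdc107 against count of Rmrp in each of 47 libraries, both on log axes, with whole cell (squares), nuclear (circles) and RiboTag (triangles, open where labelled female) libraries, and Rmrp counts of 0 drawn at 0.5. The 25 FACS libraries lie below the line of equal counts and rise along it, whereas the 22 RiboTag libraries lie at 15 to 41 Ccdc107 counts whatever the Rmrp count.

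The comparison of nuclear D2 with nuclear D1 chose the set. Each of Rmrp, Rpph1, Rn7sk, Gm22513 and Ccdc107 was higher in CPM in every nuclear D1 than in every nuclear D2 library, which held for 0.868% of the 33197 genes that passed the filter in this comparison, where 24.8% were called in either direction by edgeR's quasi-likelihood test. The fitted D1 level after TMM scaling was 52.8-fold the D2 level for Rpph1, 39.2-fold for Gm22513, 22.3-fold for Rn7sk, 17.9-fold for Rmrp and 11.5-fold for Ccdc107. The median of all genes was then 0.38 (log2, D2 minus D1), and with library totals alone the log2 differences were -3.80 for Rpph1, -3.62 for Gm22513, -2.67 for Rn7sk, -2.53 for Rmrp and -1.88 for Ccdc107. Within sequencing lane 4 the 5 differences ran from -6.91 (Rpph1) to -4.06 (Ccdc107), and within lane 5 from -5.29 (Gm22513) to -3.17 (Ccdc107), all with TMM scaling.

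Other small RNAs were also counted in nuclei. Of 13 listed, 7 passed the filter. The Y RNA gene Rny1, whose RNA binds the Ro protein, held 0.418 to 206 CPM in nuclear D1 and 0 to 0.260 CPM in nuclear D2. Rn7s2, a gene of 7SL, the RNA of the signal recognition particle, held 10.6 to 211 CPM in D1 and 2.24 to 6.10 in D2, and Rnu11, the U11 RNA of the minor spliceosome, 5.76 to 31.5 and 0.988 to 3.70. The groups did not overlap for these 3, and they overlapped for Rn7s1, Rny3, Vaultrc5 and Rnu12. Rny1, Rny3, Vaultrc5 and Rnu12 stayed under 1 CPM in every nuclear D2 library and passed the filter only through D1, so that no count or median over the 7 is given. The genes Rnu6, Rnu73b, Rprl1, Rprl2 and Rprl3, named here after their values were seen, failed the filter and had medians of 0 CPM in D1 and 0.149 to 0.552 CPM in D2, and Bc1 was not analysed here. The level that 3 counts stand for had a median of 0.444 CPM in nuclear D1 and 0.0780 CPM in nuclear D2 libraries. Depth thus limits these medians, and no direction is read from them.

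Genes of the proteins in the same particles had no direction in nuclei that held across scalings. After TMM scaling those called were higher in D1, 2 of 10 RNase P and MRP proteins (Pop5 and Rpp25), 4 of 7 of the 7SK particle and P-TEFb, 2 of 7 telomerase proteins and 6 of 20 factors of RNA polymerase III transcription, where 19.4% of all genes were called higher in D1. By library totals none of these genes was called higher in D1, and 2, 0, 2 and 3 were called higher in D2, in the same order of lists. The share of all genes by totals is not given beside them, so that nothing particular to these lists is read from the counts. Mean Pop5 was 6.12 CPM in D1 and 6.29 in D2, and mean Larp7, which binds the end of 7SK, was 5.81 and 7.35. No gene was called in this comparison within either lane, nor in a fit blocked on replicate numbers. These counts come from the comparison that chose the members and are a description.

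Several other measures separated the nuclear groups, all as shares or CPM of library totals. The ribosomal-repeat share lay above in D1 (16.4 to 55.9% against 3.46 to 10.9%), as did the share of counts on short genes (6.45 to 19.6% against 2.20 to 4.56%) and the summed level of 3 mitochondrial transcripts (125 to 1247 against 26.4 to 95.2 CPM). The summed markers of endothelial cells (6.05 to 110 against 135 to 228 CPM), microglia (42.4 to 165 against 169 to 213 CPM) and interneurons (23.3 to 41.0 against 53.0 to 75.7 CPM) lay lower in D1, and those of oligodendrocytes (307 to 605 against 267 to 613 CPM) and astrocytes (75.8 to 235 against 175 to 200 CPM) overlapped. After TMM scaling, where 19.4% of all genes were called higher in D1 and the median was 0.38, several of these went the other way. Called higher in D1 were 2 of 4 microglia, 2 of 4 interneuron, 3 of 4 oligodendrocyte and 2 of 4 astrocyte markers. Their list medians were -0.79, -0.79, -1.14 and -0.78 (log2, D2 minus D1). The shift was not limited to these cell types: 6 of 7 MSN markers (median -1.69) and 2 of 3 nuclear RNA markers (median -1.63) were also called higher in D1. Endothelial markers kept a median of 1.07. The part of these measures in the differences of the small RNAs was not tested. In bulk samples such as these, fewer cells of a type and less RNA per cell cannot be told apart.

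Whole cell D2 and D1 libraries were compared to ask whether the cell types differ without the isolation of nuclei. None of the 5 tested members was called (adjusted p at most 0.05 and a log2 difference above 0.38 in size), where 0.102% of all genes were (35 of 34270). The log2 difference (D2 minus D1) was 2.42 for Gm22513 (SE 0.71, adjusted p = 0.247, edgeR quasi-likelihood test with Benjamini-Hochberg adjustment). It was 1.61 for Rmrp (SE 0.65, adjusted p = 0.64) and 1.499 for Ccdc107 (SE 0.62, adjusted p = 0.665), which may share fragments with Rmrp. Rn7sk differed by 0.40 (SE 0.62) and Rpph1 by 0.23 (SE 0.48), both with adjusted p = 1. For Rn7sk the value was 0.82 without the repeat run. Whole cell D2 number 1 weighed on all 5. Without it the values were 1.14, 0.46, 0.36, -0.60 and -0.28, in the same order, and without whole cell D1 number 5 they were 2.65, 2.10, 1.96, 0.69 and 0.65, none of them called. None of the genes in the 5 related lists was called in this comparison, over 11 RNase P and MRP proteins, 7 of the 7SK particle and P-TEFb, 7 telomerase proteins, 20 polymerase III factors and 6 other small RNAs.

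The abundances of the RNAs relative to one another, which need no scaling between libraries, were compared by exact permutation tests over libraries, two-sided, with p-values adjusted over 11 comparisons that were chosen after the levels had been seen. Some of these comparisons used nuclear D2 libraries, whose values helped to choose the members. Their p-values enter the adjustment and lower the adjusted p-values of the others, so that those are not read as passing a threshold. Rn7sk per Rmrp had a geometric mean of 1.14 in whole cell D1 and 0.617 in whole cell D2, 1.85-fold lower in D2 (log2 difference -0.89, SE 0.38, exact p = 0.0206, adjusted p = 0.0324). Without the repeat run the log2 difference was -0.51 (exact p = 0.0493, not adjusted). Gm22513 per Rmrp was 0.155 in D1 and 0.244 in D2, 1.58-fold higher in D2 (log2 difference 0.66, SE 0.23, exact p = 0.0206, adjusted p = 0.0324), and 0.58 without the repeat (exact p = 0.0273, not adjusted). The ranges overlapped in both. Rpph1 per Rmrp and Rpph1 per Rn7sk differed by -0.69 (SE 0.62, exact p = 0.223) and 0.20 (SE 0.58, exact p = 0.713).

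The nuclear D2 libraries were 1 side of the comparison that chose the members, so their values beside the whole cell D2 libraries are a description, with no test. The nuclear D1 libraries stand on neither side here, but they enter the joint fit, its scaling and its dispersion. All 5 members that passed the filter had lower fitted levels in nuclear D2, where 13.8% of all genes were called lower and the median of all genes was 0.21 (log2, nuclear minus whole cell), and nothing is read from that share. The log2 difference of Rpph1 was -6.71 (SE 0.76), a 105-fold lower level, and each of the 5 nuclear libraries lay below each of the 6 whole cell libraries. It was -4.88 for Ccdc107 (SE 0.68), -4.87 for Rmrp (SE 0.76), -3.04 for Gm22513 (SE 0.75) and -2.83 for Rn7sk (SE 0.65). Without whole cell D2 number 1 the differences were smaller, -6.23 for Rpph1, -3.81 for Ccdc107, -3.81 for Rmrp, -1.86 for Gm22513 and -1.92 for Rn7sk. In CPM, whole cell D2 number 2 lay within or below the nuclear D2 range for Rmrp, Ccdc107, Rn7sk and Gm22513, as did number 6 for Gm22513, while the other whole cell libraries lay above it.

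**Figure D3:**
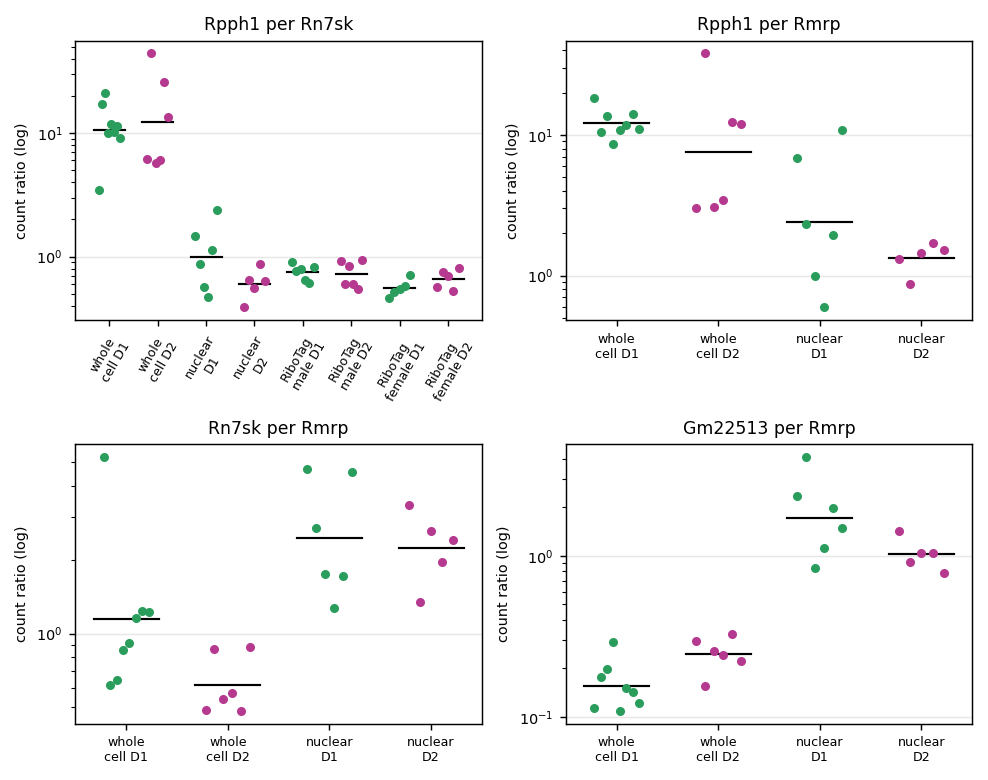
Count ratios between members in each library (points; green D1, purple D2) on log axes, with bars at geometric means. Rpph1 per Rn7sk has a geometric mean of 10.6 and 12.2 in whole cell D1 and D2 and of 0.559 to 0.984 in nuclear and RiboTag groups, and Gm22513 per Rmrp is higher in nuclei than in whole cells.

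The proportions among the RNAs in nuclei are likewise a description. Rpph1 per Rn7sk was 12.2 in whole cell D2 and 0.598 in nuclear D2, a 20.3-fold difference (log2 difference -4.34, SE 0.54). Rpph1 per Rmrp was 5.61-fold lower in nuclear D2, while Rn7sk per Rmrp was 3.62-fold and Gm22513 per Rmrp 4.18-fold higher. Nuclear D1 libraries had geometric means of 0.984 for Rpph1 per Rn7sk, 2.46 for Rn7sk per Rmrp and 1.73 for Gm22513 per Rmrp. Rpph1 and Rmrp, the RNAs of related enzymes, thus did not keep 1 ratio across methods: it was 12.1 in whole cell D1, 7.50 in whole cell D2, 2.42 in nuclear D1 and 1.34 in nuclear D2.

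After TMM scaling, 13.8% of all genes were called lower in nuclear D2 than in whole cell D2 and 4.45% higher. Among the protein partners, 2 of 11 RNase P and MRP proteins were called lower and none higher. These were Pop5 (log2 difference -1.24, SE 0.30) and Rpp14 (-0.86, SE 0.30). Of the 7SK particle and P-TEFb, 4 of 7 were lower, Hexim1 (-2.14), Larp7 (-1.23), Ccnt2 (-0.99) and Ccnt1 (-0.89), and of the telomerase proteins Dkc1 (-2.06) and Nhp2 (-1.48) of 7. In polymerase III transcription 8 of 20 were lower. The list medians were -0.85, -0.89, 0.13 and -0.55 beside 0.21 over all genes. By library totals, fewer were called lower: none of the 11, Hexim1 of the 7, Dkc1 of the 7 and 1 of the 20. The share of all genes called lower by totals is not given here, and nothing particular to these lists is read from the counts. Of the other small RNAs, Rn7s1 (-5.39) and Rn7s2 (-4.08) were called lower. No count over that list is given, since Rny1, Rny3, Vaultrc5 and Rnu12 stayed under 1 CPM in every nuclear D2 library. Those passed the filter only through other groups, so that a lower level in nuclear D2, as for Rnu12 (-3.56), is not read as a result. The mitochondrial transcripts were lower in these nuclei too (26.4 to 95.2 against 107 to 682 CPM) and oligodendrocyte markers were higher (267 to 613 against 50.9 to 141 CPM), and their part was not tested.

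RiboTag libraries hold RNA bound with tagged ribosomes, and they were compared with whole cell libraries of the same cell type. Rmrp, Gm22513 and Ccdc107 stayed under 1 CPM in every RiboTag library labelled male and passed the filter only through other groups. Their lower levels here are thus a description, with no test. Rpph1 was called lower in RiboTag D2 than in whole cell D2, where 55.6% of all genes were called lower. It was also called lower in RiboTag D1 than in whole cell D1, where 56.9% were. The median of all genes was -2.30 and -2.37, so that each value is read against it. Rmrp had the largest difference, -9.29 in D2 (SE 0.98) and -7.91 in D1 (SE 0.96). It rested on 11 counts over the RiboTag D2 and 9 over the RiboTag D1 libraries, so that its size is uncertain. Rpph1 had -4.10 in D2 (SE 0.62, adjusted p = 3.4e-07) and -3.77 in D1 (SE 0.59, adjusted p = 7.14e-07). Ccdc107 had -4.74 and -3.17, and Gm22513 had -5.87 and -2.90 on 33 and 47 RiboTag counts. Without the 6 libraries that went against their label, Rpph1 had -4.01 in D2 (adjusted p = 0.000104) and -3.78 in D1 (adjusted p = 0.00553). Rmrp then had -8.98 and -9.19, Ccdc107 -4.51 and -3.28, and Gm22513 -5.82 and -3.30, in the same order. In that fit 16764 genes were called in D1 in place of 28094. In CPM, where the ribosomal repeats weigh on every other gene, summed astrocyte markers were also lower in RiboTag D2 labelled male (2.21 to 3.33) than in whole cell D2 (31.3 to 142). After TMM scaling the D2 list medians were -1.16 for astrocyte, -0.33 for microglia and -3.88 for endothelial markers, beside -2.30 over all genes. They were 0.28 for oligodendrocyte, 1.61 for interneuron and 2.75 for MSN markers. The part of these measures was not tested.

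Rn7sk differed from Rpph1 here. Its log2 difference was -0.56 in D2 (SE 0.57, adjusted p = 0.365) and -0.08 in D1 (SE 0.54, adjusted p = 0.89), and it was not called in either. In D1 the value was 0.35 without the repeat run, in which Rn7sk was far higher, and 0.014 without the libraries whose Xist and Y-linked counts went against their label. By library totals, where the ribosomal repeats weigh on every other gene, Rn7sk was called lower in both, by -4.24 in D2 (adjusted p = 7.83e-08) and -3.92 in D1 (adjusted p = 1.61e-07), so that its place between the methods depends on the scaling. In D2 it was 0.35 without whole cell D2 number 1 and -0.45 without the 6 libraries, and in D1 it was 0.19 without whole cell D1 number 5, none of them called. The ratio of Rpph1 to Rn7sk, which does not depend on scaling, was 16.8-fold lower in male RiboTag D2 (0.723) than in whole cell D2 (exact permutation p = 0.00216, adjusted p = 0.00953 over the 11 comparisons). The adjusted value is lowered by the comparisons with nuclear D2 among the 11. Without RiboTag D2 numbers 2 and 6 it was 17.2-fold lower (0.709, exact permutation p = 0.00952, not adjusted).

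For genes of the proteins that bind these RNAs, the direction between RiboTag and whole cell libraries was set by the scaling. By library totals, where the median of all genes was -5.36 in D2 and -5.83 in D1, none of the genes in the 4 protein lists was called higher in RiboTag libraries. All of the 7SK particle and P-TEFb (7 of 7), telomerase (7 of 7) and polymerase III genes (20 of 20) and 10 of 11 RNase P and MRP genes were called lower in D2. The share of all genes called lower by totals is not given here. With the median of all genes that low, nothing particular to these lists is read from their counts. Mean Hexim1 was 3.61 CPM in RiboTag D2 labelled male and 10.8 in whole cell D2, mean Larp7 4.00 and 13.0, mean Mepce 1.71 and 5.25, and mean Pop5 2.86 and 10.9.

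After TMM scaling, with the median of all genes at -2.30 in D2, more genes of these lists were called higher than lower, where 7237 of 36239 genes were called higher in D2 and 7479 in D1. All but Ccnt2 of the 7 genes of the 7SK particle and P-TEFb were higher in D2 (Hexim2 2.01, Hexim1 1.95, Mepce 1.92, Larp7 1.80, Cdk9 1.42 and Ccnt1 0.67) and 5 of 7 in D1. Of 11 RNase P and MRP proteins, 4 were higher and 2 lower in D2, with Rpp25 at 2.58, Pop5 at 1.49, Pop7 at 1.46 and Pop4 at 0.86 against Pop1 at -1.41 and Rpp30 at -0.91. In D1 it was 3 higher and 2 lower. Of the telomerase proteins 4 were higher and 2 lower in D2, with Nhp2 at 2.18 and Tert, the catalytic subunit, at -2.62, and 3 and 2 in D1. Of 20 polymerase III factors 10 were higher and 3 lower in D2, and 12 and 2 in D1. Of the genes named, Hexim2, Rpp25, Pop7, Pop1, Rpp30 and Tert failed the filter within RiboTag libraries labelled male. They passed it here only with libraries of other groups, so that the lower levels of Pop1, Rpp30 and Tert are not read as a result. The list medians in D2 were 1.80, 0.76, 1.27 and 0.65 beside -2.30 over all genes. Without the 6 libraries, 6, 3, 4 and 10 genes of the 4 lists were called higher in D2, and 4, 1, 2 and 7 in D1. The order is 7SK and P-TEFb, RNase P and MRP, telomerase and polymerase III. The share of all genes called higher in that fit is not given here, so that nothing particular to these lists is read from its counts. The 7SL genes Rn7s1 and Rn7s2 were higher in RiboTag D2 by 3.05 (SE 0.80, adjusted p = 0.000981) and 2.10 (SE 0.69, adjusted p = 0.00688) after TMM scaling, but by totals they were at -0.61 (adjusted p = 0.396) and -1.46 (adjusted p = 0.0238). Rnu11 and Rnu12 of the minor spliceosome failed the filter within RiboTag libraries and passed it here only with libraries of other groups. Their log2 differences of -7.01 (SE 1.51) and -6.47 (SE 1.31), and of -9.87 and -9.36 by totals, are therefore not read as a result.

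Nuclear D2 and RiboTag D2 libraries differed for 84.0% of all genes in either direction, with a median of 2.79 (log2, nuclear minus RiboTag) after TMM scaling. The members' values are a description here too, since nuclear D2 chose them, and nothing is read from that share. The log2 difference was 4.42 for Rmrp (SE 0.98), 2.83 for Gm22513 (SE 0.89), -0.14 for Ccdc107 (SE 0.62), -2.27 for Rn7sk (SE 0.64) and -2.61 for Rpph1 (SE 0.62). Without the 6 libraries these were 4.09, 2.75, -0.41, -2.39 and -2.71. The direction for Rpph1, Rn7sk and Ccdc107 was set by the scaling. By library totals these were 1.30, 1.64 and 3.74, all higher in nuclei. Leaving the ribosomal-repeat genes out of the totals put mean Rpph1 at 34.3 CPM in male RiboTag D2 and 23.5 in nuclear D2, and mean Rn7sk at 46.6 and 40.3. Rpph1 per Rn7sk was 0.598 in nuclear D2 and 0.723 in male RiboTag D2 (log2 difference -0.27, SE 0.24), and -0.24 without RiboTag D2 numbers 2 and 6.

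Within RiboTag libraries, D2 and D1 were compared in each labelled sex. No member was called in libraries labelled male, where 4.48% of all genes were (480 of 10724), with Rpph1 at -0.06 (SE 0.10, adjusted p = 0.821) and Rn7sk at -0.05 (SE 0.09, adjusted p = 0.832), and none was called without the 6 libraries. None was called in libraries labelled female, where 2.53% were, with Rpph1 at 0.31 (SE 0.13, adjusted p = 0.256), Rn7sk at 0.10 (SE 0.13, adjusted p = 0.809) and Ccdc107 at -0.27 (SE 0.21, adjusted p = 0.62). Rmrp, Gm22513 and Terc failed the filter in both, and Ccdc107 in the first. The D2 minus D1 difference was not called different between labelled sexes for any of 3 tested members by edgeR, where 0.00% of all genes were called (0 of 11238, with 755 at an unadjusted p under 0.05). Rpph1 had the largest such value, 0.37 (SE 0.18, adjusted p = 0.736), and none was called without the 6 libraries. Of the related lists, 1 gene was called in either sex, the telomerase protein Nhp2, higher in D2 in libraries labelled female (0.51, adjusted p = 0.0105).

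Rpph1 was lower in RiboTag libraries labelled female than in those labelled male, 1 of 6 genes called of 11238 (0.0534%). The other 5 were the Y-linked Ddx3y, Kdm5d, Uty and Eif2s3y, and Nr4a3, a nuclear receptor of the immediate early response, named here after its value was seen. Libraries labelled female held Rpph1 at 4.79, 6.10, 5.81, 8.51 and 7.34 CPM in D1 and 7.27, 6.38, 8.63, 6.35 and 7.65 CPM in D2. Those labelled male held 8.52 to 10.5 CPM (median 9.17) in D1 and 6.39 to 10.6 CPM (median 8.76) in D2. All 5 D1 values labelled female lay below the lowest D1 value labelled male, number 5 only just (8.51 against 8.52 CPM), while the D2 ranges overlapped. The log2 difference (female minus male) was -0.51 (SE 0.09, adjusted p = 0.00857), a 1.43-fold lower level, and Rn7sk differed by -0.22 (SE 0.08, adjusted p = 0.385) and Ccdc107 by -0.12 (SE 0.13, adjusted p = 0.816).

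The Xist and Y-linked counts did not divide Rpph1 along the same line. The 6 libraries labelled male with more Xist than Y-linked counts held 9.39 ± 1.05 CPM (SD, n = 6), the 6 with fewer 8.55 ± 1.57 (SD, n = 6), and the 10 labelled female 6.88 ± 1.22 (SD, n = 10). Without the first 6 the difference was -0.47 (adjusted p = 0.319), and no member was called, among 10 genes called in all. The libraries labelled male and female thus differed in Rpph1 as labelled, and sex and any other difference between these sets of libraries cannot be told apart.

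**Figure D4:**
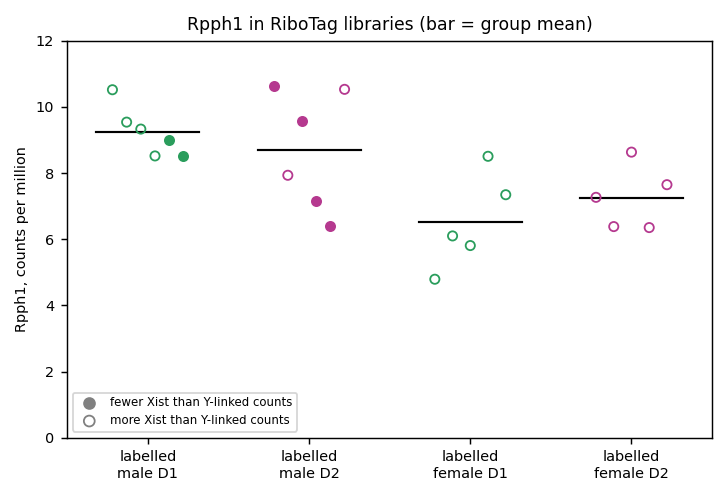
Rpph1 in CPM in each of 22 RiboTag libraries by labelled sex and cell type (green D1, purple D2), with bars at group means, filled symbols for libraries with fewer Xist than Y-linked counts and open symbols for those with more. The open symbols among libraries labelled male lie at 7.93 to 10.5 CPM, mostly above the libraries labelled female at 4.79 to 8.63.

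The column read as a repeat of whole cell D1 number 1 had a correlation of log2 CPM with the first run of 0.986. Pairs of whole cell D1 libraries ran from 0.845 to 0.984, only just below it. The correlation thus does not settle whether the column is a repeat or a sample of another mouse. The paper counts more whole cell D1 samples than the libraries used here, each from its own mouse. Of 14019 genes with at least 200 counts over both runs, 99.5% were within 2-fold. Rn7sk was at 51.7 CPM in the first run and 1021 in the repeat, a 19.7-fold difference, which ranked 5 among those genes. The 7SL genes Rn7s1 and Rn7s2 were 24.0-fold and 18.4-fold higher in the repeat. Gm22513 went the other way, from 13.9 to 1.14 CPM, on 178 and 9 counts. Rmrp (1.01-fold), Ccdc107 (0.994-fold), Rpph1 (0.882-fold) and Drd1 (1.07-fold) were close to 1. Of 13 genes over 4-fold higher in the repeat, 9 had a span of at most 400 bases. With the repeat left out, mean Rn7sk in whole cell D1 was 140 CPM in place of 186.

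**Figure D5:**
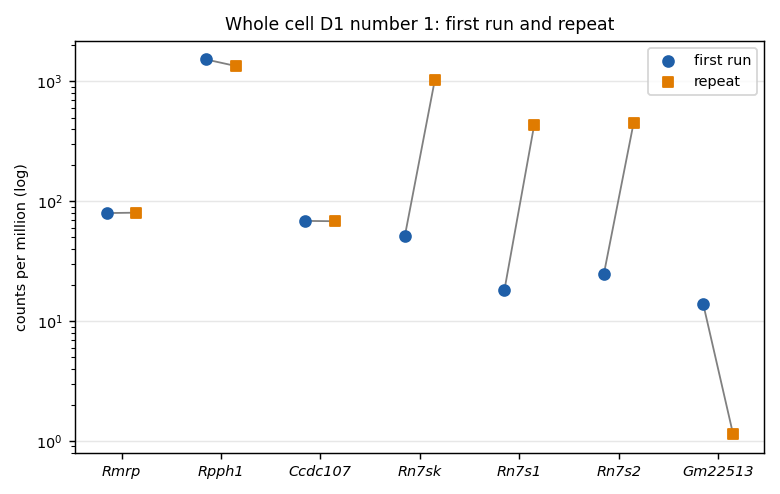
Level in CPM, on a log axis, of Rmrp, Rpph1, Ccdc107, Rn7sk, Rn7s1, Rn7s2 and Gm22513 in the first run (circles) and the repeat (squares) of whole cell D1 number 1. Rn7sk, Rn7s1 and Rn7s2 are 18.4- to 24.0-fold higher in the repeat and Gm22513 is lower, while Rmrp, Rpph1 and Ccdc107 are within 0.882- to 1.01-fold.

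The genes most like each member over the 47 libraries were found by the correlation of log2 CPM over 36241 genes, members left out, a description of libraries that share method, depth and base composition. Rmrp was most like the small Cajal body RNA Gm25395 (r = 0.982), the small nucleolar RNA Snora74a (0.982) and Scarna10 (0.981). Gm22513 was most like Gm49346 (0.981), Snora81 (0.980) and Snora23 (0.975), and Rn7sk like Snora23 (0.929), Rps3, a ribosomal protein gene (0.927), and the U1-like Gm24305 (0.922). Ccdc107, a protein-coding gene, was most like Gm24305 (0.975), Gm25395 (0.974) and Snx5, a sorting nexin (0.972). Rpph1 was most like the small RNA gene Gm26035 (0.981), followed by the spectrin genes Sptbn1 (0.942) and Sptan1 (0.938). Terc did not pass the filter and was not compared.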

How the data were processed

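The authors deposited raw counts of fragments per gene, without normalization, in 1 table of 52636 Ensembl genes (GRCm38). Per the submitters' processing notes and the methods, reads were aligned with HISAT2 2.0.5 and counted with featureCounts over the whole gene body (Ensembl 90), without regard to strand; a fragment on several genes was counted for each, and multi-mapping fragments were left out. Of the genes, 52403 were matched by identifier to GENCODE M21.

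The 49 columns gave 47 libraries: lanes of whole cell D2 number 3 were summed, as was a column read from its name as a repeat of whole cell D1 number 1. Sample titles, design text and column names disagree on the number of whole cell libraries per cell type, and column names matched to labels were used. No column was left unused (0).

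Genes with more than 1 CPM in at least 2 libraries of a comparison were tested with edgeR 4.0.16 (R 4.3.3; glmQLFit, glmQLFTest, TMM, Benjamini-Hochberg over all genes; called at adjusted p at most 0.05 and a log2 fold change above 0.38 in size). SE is the size of the log2 fold change divided by the root of F. Comparisons between methods used all groups labelled male in 1 fit. Sequencing depth set the level that 3 counts stand for in each library. The fits were tested on simulated data with 200 changed genes. Alternatives were DESeq2 1.42.0, its size factors, library totals, other filters, the number as a block and each replicate left out; those without the ribosomal-repeat genes or the repeat in levels and ratios, without named whole cell libraries and without libraries that went against their label by Xist were chosen after seeing the data, as were the ratios. Ratios were compared with SciPy 1.17.1. Nuclear sequencing lanes were read from sample names in the study's supplement, since the deposited columns do not carry them. The members and lists were chosen with earlier results of these data known. Named genes were the members, genes overlapping them, called genes of the lists (up to 6 each by lowest p) and the 3 genes most like each member; others are said to be chosen afterwards.

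Libraries that share a number were checked for pairing by the correlation of their deviations from group means, which ran from -0.259 to 0.161 in whole cell, -0.309 to 0.272 in nuclear and, in RiboTag, -0.054 to 0.172 in libraries labelled male and -0.016 to 0.155 in those labelled female, so that the number was not taken to pair them.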

Additional observations from a re-analysis of the deposited data

Results flagged for a closer look

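In groups of 4 to 10 libraries, the highest or lowest value stood apart in 11 of 43 combinations of a member and a group by Dixon's test at the 95% level, where chance gives about 1 in 20 groups. Most lie in 2 libraries. Whole cell D2 number 1 was the highest of its group for Rmrp (1533 CPM), Rpph1 (4619), Rn7sk (747), Gm22513 (455) and Ccdc107 (973). Whole cell D1 number 5 was the highest of its group for Rmrp (482 CPM), Rpph1 (5206) and Ccdc107 (315). Nuclear D2 number 5 was the lowest of its group for Rn7sk (15.4 CPM), and RiboTag male D2 number 2, 1 of the libraries whose Xist and Y-linked counts went against the label, was the highest of its group for Rn7sk (13.2 CPM). Terc reached 1.33 CPM in whole cell D2 number 4, on 15 counts. The members are not independent here, since Ccdc107 may share fragments with Rmrp and all values of a library share its depth.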

How the results depend on the processing

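The D2 minus D1 difference of the members in nuclei, a median of -4.48 (log2), was -2.67 by library totals and -3.25 with the study's filter on FPKM, and -4.59 to -4.25 with each nuclear D2 library left out. Scaling by totals turned Rpph1 in whole cells (-0.080), Rn7sk in RiboTag libraries labelled female (-0.053) and Ccdc107 between labelled sexes (0.019), none called, and Rpph1 (1.30), Rn7sk (1.64) and Ccdc107 (3.74) between nuclear D2 and RiboTag D2. There Ccdc107 was also 0.50 with DESeq2's size factors, 0.50 with DESeq2, 0.054 with the block and -0.45 to 0.040 with each nuclear D2 library left out, the highest without number 5. Rn7sk in RiboTag D1 against whole cell D1 was 0.35 without the repeat and 0.014 without the 6 libraries that went against their label by Xist. Without whole cell D2 number 1, Rpph1 was -0.28 and Rn7sk -0.60 in whole cells, and Rn7sk was 0.35 in RiboTag D2 against whole cell D2. Without whole cell D1 number 5, Rn7sk was 0.19 in RiboTag D1 against whole cell D1. Without those 6 RiboTag libraries, 0 members were called between labelled sexes in place of 1. Rpph1 per Rn7sk in whole cells was -0.18 without the repeat (exact permutation p = 0.719). Only nuclear D2 and RiboTag libraries labelled female, in groups of 5, were left out in turn. Without each of the latter the number of members called stayed at 1 between labelled sexes and at 0 in D2 against D1 labelled female and in the difference between sexes. Without each nuclear D2 library, ratios between nuclear and whole cell D2 ran from -2.57 to -2.33 (Rpph1 per Rmrp), 1.71 to 2.04 (Rn7sk per Rmrp), 1.94 to 2.16 (Gm22513 per Rmrp) and -4.48 to -4.19 (Rpph1 per Rn7sk).

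With the replicate number as a block, which the deviations did not bear out as a pairing, Rn7sk in whole cells turned to -0.046. In nuclei no gene, and so no member, was called with the block. Among the other comparisons given with a test, the block changed no call of a member, with Rpph1 between labelled sexes at -0.51 (adjusted p = 0.03).

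Counts of genes called over all genes moved more than the members did. In whole cells 35 became 308 with DESeq2, 140 with the FPKM filter, 16 with the block and 60 with the repeat kept as a library. In nuclei 8238 became 1761 with the FPKM filter, 0 with the block, 0 within either lane, and 4700 and 4347 without D2 numbers 1 and 5. In RiboTag libraries labelled male 480 became 265 with the FPKM filter, and in those labelled female 279 became 482 by totals, 495 without a filter and 185 with the FPKM filter. For the difference between sexes 0 became 59 without a filter, and 1 with the block or without female D1 number 4. Between labelled sexes 6 became 230 by totals, 78 without a filter, 25 without female D1 number 4 and 10 without the 6 libraries. Between nuclear and whole cell D2, 6629 became 3613 by totals and 13571 without a filter. The causes were not tested, apart from settings that change the number of genes or libraries tested.

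Depth limits Rmrp, Gm22513 and Terc in RiboTag libraries, where a library's 3 counts stand for 0.0657 to 0.125 CPM. Subtraction of Rmrp fragments from Ccdc107 was not run, because 112 of the 271 Rmrp bases lie outside Ccdc107.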
